A study of Mus musculus with 6 samples.

Results

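The muscle miRNAs miR-1a-3p, miR-133a-3p, miR-133b-3p, miR-206-3p and miR-499-5p were examined in white adipose tissue (WAT) of mice exposed to chronic intermittent hypoxia (CIH) and of control mice. These 5 miRNAs were chosen by name, as the rows whose identifier is the miRBase accession of one of them (MIMAT0000123, MIMAT0000145, MIMAT0000769, MIMAT0000239 and MIMAT0003482, in the same order). They are 5 of the 707 miRNAs counted. All 5 passed the filter on low counts, which left 633 miRNAs for testing. There were 3 control and 3 CIH libraries of WAT, in which miRNAs were measured by small RNA sequencing (miRNA-seq). Every mouse was a male ApoE-deficient (ApoE-/-) mouse, which lacks apolipoprotein E and develops high blood cholesterol, so neither group shows WAT of a mouse with ApoE. The CIH group went through 8 weeks of repeated falls and returns of the oxygen fraction, a model of obstructive sleep apnea, and the control group did not. The age of the mice and the fat depot are not given in the sources used here. The labels number the replicates without saying that each came from its own animal, so the p-values measure the spread between these libraries.

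MiRNAs are small RNAs that pair through their seed, bases 2 to 8, with messenger RNAs and reduce the output of these messengers. The muscle miRNAs, often called myomiRs, are made in striated muscle and are usually scarce in fat cells. miR-1 and miR-133 are made together in skeletal and cardiac muscle, where miR-1 favours differentiation and miR-133 favours proliferation of precursor cells. miR-206 belongs to the miR-1 family, with which it shares its seed, and is made in skeletal muscle and hardly in heart. miR-499 lies within a myosin gene and is typical of heart and slow skeletal muscle fibres.

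The mature sequences are shown because the identity of the read decides which muscle miRNA it is counted for. The part of RefSeq (GRCm38.p6) searched here, which left out a chromosome, held 3 of the 5 among its 1679 mature miRNAs. They are written 5′ to 3′ with the seed in capitals.
miR-206-3p: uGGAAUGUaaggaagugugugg
miR-133b-3p: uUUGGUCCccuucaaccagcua
miR-499-5p: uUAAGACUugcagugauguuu

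The seed of miR-206-3p was also found in miR-6349 and miR-6382 of the RefSeq table, and the seeds of miR-133b-3p and miR-499-5p were found in 0 other mature miRNAs there. The table as searched held no entry for miR-1a-3p or miR-133a-3p, so this search could not find them and is not a full list of shared seeds. Mir206 (chromosome 1, 20679010 to 20679082, plus strand) and Mir133b (chromosome 1, 20682769 to 20682887, plus strand) lie 3686 bases apart in exons of the noncoding gene Gm28653 in GENCODE release M21 on GRCm38. Mir499 (chromosome 2, 155622880 to 155622958, plus strand) lies in an intron of Myh7b, which encodes a myosin heavy chain. Mir1a-1 (chromosome 2, 180389048 to 180389124, plus strand) and Mir133a-2 (chromosome 2, 180398379 to 180398482, plus strand) lie 9254 bases apart, within the noncoding gene Mir1a-1hg of RefSeq. Another pair of hairpins, Mir1a-2 and Mir133a-1, gives the same mature miR-1a-3p and miR-133a-3p, so these counts cannot tell the loci apart. The hairpins are shown with the counted arm in capitals, since the arm sets which product of each locus the values below describe.
Mir206: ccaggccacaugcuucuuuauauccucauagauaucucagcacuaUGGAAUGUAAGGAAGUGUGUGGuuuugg
Mir133b: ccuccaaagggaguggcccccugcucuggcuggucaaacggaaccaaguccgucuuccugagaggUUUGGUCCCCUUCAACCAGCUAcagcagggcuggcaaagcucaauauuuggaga
Mir499: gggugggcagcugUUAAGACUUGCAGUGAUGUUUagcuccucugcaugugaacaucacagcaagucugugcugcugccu

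The depth differed between the libraries, with totals from 636963 counts in CIH 3 to 4783768 counts in control 2. Levels are given as CPM, the count scaled to a common library size, after TMM normalization, which corrects the totals for differences in composition with factors of 0.575 in control 1 to 1.45 in CIH 3. A read spans the whole mature miRNA, so that levels were not divided by length, and ligation can favour some sequences over others. The biological coefficient of variation, which measures the spread left after counting noise, was 1.43 among the controls and 0.435 among the CIH libraries. Control 1 and control 2 stood apart from the other 4 libraries, with a count for 487 and 552 miRNAs, against 631 to 649 in control 3 and the CIH libraries. Of the 395 miRNAs averaging 10 CPM or more, 71 were over 4-fold higher (CPM + 2) in each of those 4 libraries than in either control 1 or control 2. This split was looked for after the values were seen, and it holds for miR-499-5p and for none of the other muscle miRNAs. The counts list miRNAs by accession without names, and the names of these 5 came with the rule that chose them. Lists of miRNAs typical of fat, blood, pancreas and other tissues, and of the other arms and relatives of the muscle hairpins, were therefore not analysed here.

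CIH 3 held far more of the muscle miRNAs than any other library, with the exception of miR-499-5p. Their counts summed to 8237, 19107 and 2826 in control 1 to 3 and to 9737, 1659 and 27113 in CIH 1 to 3. The sum was 4.26% of all counts in CIH 3 (95% Wilson interval 4.21% to 4.31%) and lay between 0.225% and 0.617% in the other 5 libraries. CIH 3, the library with the smallest total, was thus 6.90-fold above the next library, CIH 1, and 18.9-fold above the lowest, CIH 2. With TMM effective library sizes as the denominator, the next library was control 1 and CIH 3 was 2.81-fold above it, and 16.4-fold above CIH 2. The interval covers counting error only. In a tissue piece, more cells of a type and more of the RNA per cell cannot be told apart. miR-1a-3p made up 94.2% to 98.7% of the sum, so the sum mostly follows that miRNA.

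miR-1a-3p was the most abundant of the group, with 8133, 18583 and 2679 counts in control 1 to 3 and 9477, 1563 and 25834 counts in CIH 1 to 3. After TMM normalization these were 10352, 4483 and 2415 CPM for control 1 to 3 and 7611, 1689 and 28024 CPM for CIH 1 to 3. The groups overlapped, and the highest and the lowest library were both CIH libraries. By its level it ranked 5th of the 707 miRNAs in CIH 3 and between 18th and 49th in the other 5 libraries. Control libraries averaged 5750 ± 4117 CPM and CIH libraries 12441 ± 13816 CPM (SD, n = 3 each). On the log2 scale the CIH group was 1.11 ± 1.13 (SE) above the control group (adjusted p = 0.882, edgeR's quasi-likelihood test).

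miR-133a-3p, which comes from the same precursor transcripts as miR-1a-3p, had 79, 342 and 83 counts in control 1 to 3, against 176, 46 and 792 in CIH 1 to 3. After TMM normalization these were 101, 82.5 and 74.8 CPM for control 1 to 3 and 141, 49.7 and 859 CPM for CIH 1 to 3. At these normalized levels the 3 control libraries lay close together, within a 1.34-fold range, and the CIH libraries spread on both sides of them over a 17.3-fold range. By library totals alone, control 1 to 3 had 57.8, 71.5 and 104.7 CPM, and CIH 2, at 62.4 CPM, lay within their range. Control libraries averaged 86.0 ± 13.2 CPM and CIH libraries 350.1 ± 443.2 CPM (SD, n = 3 each). On the log2 scale the CIH group was 2.03 ± 1.07 (SE) above the control group (unadjusted p = 0.104, adjusted p = 0.882, edgeR's quasi-likelihood test).

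miR-133b-3p, made from the locus of miR-206, had 14, 61 and 11 counts in control 1 to 3, against 43, 9 and 134 in CIH 1 to 3. After TMM normalization these were 17.8, 14.7 and 9.91 CPM for control 1 to 3 and 34.5, 9.72 and 145 CPM for CIH 1 to 3. As for miR-133a-3p, CIH 3 was highest, CIH 1 came next and CIH 2 was lowest after TMM normalization. For miR-133b-3p, CIH 2 was hardly below control 3, with 9 against 11 counts. By library totals alone the lowest library was control 1 for both, at 10.2 CPM for miR-133b-3p and 57.8 CPM for miR-133a-3p. On the log2 scale the CIH group was 2.15 ± 1.02 (SE) above the control group (unadjusted p = 0.0743, adjusted p = 0.882, edgeR's quasi-likelihood test). Its mature sequence is nearly identical to that of miR-133a-3p, and the authors' handling of reads that match both is not given in the sources used here, so the division of reads between them is uncertain.

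miR-206-3p, the skeletal muscle member of the miR-1 family, had 9, 106 and 2 counts in control 1 to 3, against 11, 7 and 317 in CIH 1 to 3. After TMM normalization these were 11.5, 25.6 and 1.80 CPM for control 1 to 3 and 8.83, 7.56 and 344 CPM for CIH 1 to 3. CIH 3 stood 13.4-fold above control 2, the next library, while CIH 1 and CIH 2 lay within the range of the control group. CIH 3 held 95.4% of the summed normalized level of the CIH group. On the log2 scale the CIH group was 3.18 ± 1.73 (SE) above the control group (unadjusted p = 0.112, adjusted p = 0.882, edgeR's quasi-likelihood test), and its 95% interval ran from -0.96 to 7.32.

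miR-499-5p, the miRNA of heart and slow muscle fibres, did not follow the others. It had 2, 15 and 51 counts in control 1 to 3, against 30, 34 and 36 in CIH 1 to 3. After TMM normalization these were 2.55, 3.62 and 46.0 CPM for control 1 to 3 and 24.1, 36.7 and 39.1 CPM for CIH 1 to 3. Control 1 and control 2 were low, and control 3 exceeded each CIH library. Its lowest level outside control 1 and control 2 was 4.64-fold the higher of these (CPM + 2), so it is 1 of the 71 miRNAs with that split, whose part in the value of miR-499-5p was not tested. The 3 CIH libraries lay within a 1.62-fold range, and the level in CIH 3 was 1.06-fold that of CIH 2. On the log2 scale the CIH group was 0.94 ± 1.14 (SE) above the control group (adjusted p = 0.882, edgeR's quasi-likelihood test).

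**Figure D1:**
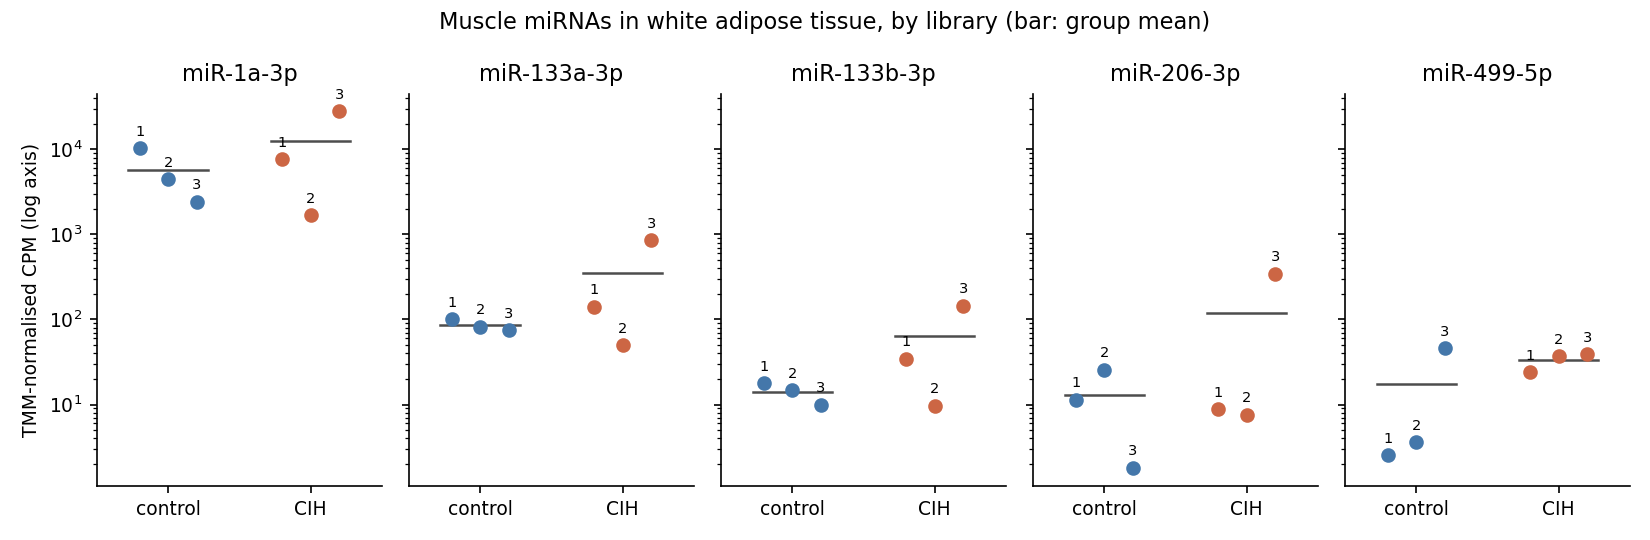
TMM-normalized CPM of each muscle miRNA in each library, on a log axis, with the replicate number above each point and a bar at the mean of each group (n = 3). CIH 3 is the highest library for miR-1a-3p (28024 CPM), miR-133a-3p (859 CPM), miR-133b-3p (145 CPM) and miR-206-3p (344 CPM), whereas control 3 is the highest for miR-499-5p (46.0 CPM).

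With TMM factors and edgeR's quasi-likelihood test on all 6 libraries, none of the 5 muscle miRNAs passed the threshold for a difference between the CIH and control groups. By the criteria of an unadjusted p-value under 0.05, the study's level, and a change of at least 1.5-fold, 0 of the 5 were called by edgeR's quasi-likelihood test, beside 2.53% of all miRNAs tested. At an adjusted p-value under 0.05, 0 of the 5 were called, beside 0% of all miRNAs tested. With DESeq2, which gave no p-value for miR-206-3p, 1 of the 5 met the unadjusted criteria, miR-133b-3p. This stood beside 4.44% of the 585 miRNAs to which DESeq2 gave a p-value. The DESeq2 p-value of miR-133b-3p was 0.0498 unadjusted and 0.866 adjusted, and its adjusted p-value ran from 0.265 to 0.975 over all alternatives. With library sizes that leave out the 5 most abundant miRNAs, miR-133b-3p alone met them, beside 2.53% of all miRNAs tested. With edgeR's exact test and limma voom 0 of the 5 met them, beside 4.58% and 11.8% of all miRNAs. The levels of the CIH and control libraries overlapped for each of the 5, so that 0 of the 5 were separated, beside 8.06% of all miRNAs tested. The fitted change was above 0 for all 5, as for 52.4% of all miRNAs tested. The median log2 fold change was 2.03 over the 5 miRNAs and 0.07 over all miRNAs tested. The intervals were wide, from -1.59 to 3.82 for miR-1a-3p and from -0.28 to 4.59 for miR-133b-3p on the log2 scale.

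For miR-1a-3p, miR-133a-3p, miR-133b-3p and miR-206-3p, the size of the fitted change rested on CIH 3. Without CIH 3, the log2 fold change was -0.31 for miR-1a-3p, 0.15 for miR-133a-3p, 0.65 for miR-133b-3p and -0.67 for miR-206-3p, with adjusted p-values of 0.972 to 0.974 from edgeR's quasi-likelihood test. By the same criteria, 0 of the 5 were called in that fit, beside 0.158% of all miRNAs tested, and the median of the 5 was 0.15. For miR-206-3p, CIH 1 and CIH 2 had a mean of 8.20 ± 0.898 CPM (SD, n = 2), below the control mean of 12.9 ± 12.0 CPM (SD, n = 3). Without CIH 2, the lowest CIH library, the changes were 2.54 for miR-133a-3p and 2.66 for miR-133b-3p, with unadjusted p-values of 0.0434 and 0.0273, and both had an adjusted p-value of 0.975 from the same test. These 2 met the criteria in that fit, beside 0.948% of all miRNAs tested.

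For miR-499-5p the value rested on which control libraries were used. Without control 3, the log2 fold change of miR-499-5p was 3.34 (standard error 0.54, adjusted p = 0.0106, edgeR's quasi-likelihood test), and its adjusted p-value lay between 0.0106 and 0.975 over all alternatives. In the fit without control 3, 18.6% of all miRNAs tested had an adjusted p-value under 0.05 and 37.6% met the criteria above, so that 1 muscle miRNA of 5 was called beside a large background. Without control 1 or control 2 the change was 0.53 in both cases. With control 3 as the only control, an alternative chosen after seeing the data in which that library is assumed to vary like the CIH libraries, the change of miR-499-5p was -0.37 (adjusted p = 0.933, edgeR's quasi-likelihood test). In that fit the changes of the other muscle miRNAs ran from 2.34 for miR-133a-3p to 6.08 for miR-206-3p, and 0 of the 5 met the criteria, beside 2.69% of all miRNAs tested.

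**Figure D2:**
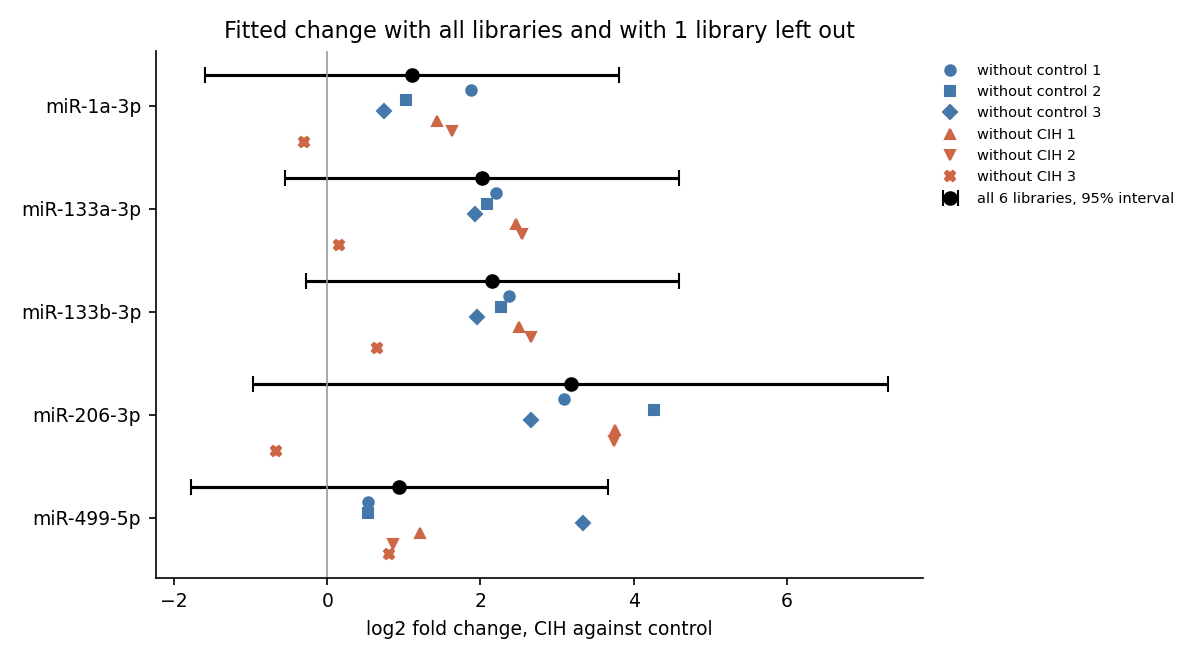
Log2 fold change of each muscle miRNA in the CIH group against the control group, from edgeR with all 6 libraries (black, with 95% interval) and with 1 library left out (colored by the group of that library). Without CIH 3 the values of miR-1a-3p and miR-206-3p fall below 0 (-0.31 and -0.67), and without control 3 the value of miR-499-5p rises to 3.34.

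The difference of CIH 3 from the other CIH libraries was then set beside that of all other miRNAs. This comparison was chosen after the values were seen and is a description with no test. Of the 395 miRNAs averaging 10 CPM or more, the largest ratio of CIH 3 to the mean of CIH 1 and CIH 2, on a log2 scale with 2 CPM added, was that of miR-206-3p (5.08). The next were miR-133a-3p (3.14), miR-133b-3p (2.61) and miR-1a-3p (2.59), so these muscle miRNAs took ranks 1 to 4. miR-499-5p ranked 65th, at 0.34, and the median of all 395 was -0.12. A ratio over 4-fold was found for 6 of the 395 (1.52%), the 4 muscle miRNAs and the accessions MIMAT0003469 and MIMAT0024861. MIMAT0003469 had 257, 10 and 268 counts in control 1 to 3, against 222, 321 and 1213 in CIH 1 to 3, and MIMAT0024861 had 368, 111 and 66 in control 1 to 3, against 202, 47 and 490 in CIH 1 to 3. The coefficient of variation within the CIH group was 111% for miR-1a-3p, 127% for miR-133a-3p, 114% for miR-133b-3p and 161% for miR-206-3p, beside a median of 27.6% for the 395 miRNAs. For miR-499-5p it was 24.2%. In the control group it was 71.6% for miR-1a-3p, 15.4% for miR-133a-3p, 28.1% for miR-133b-3p, 92.4% for miR-206-3p and 143% for miR-499-5p, beside a median of 84.1%.

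**Figure D3:**
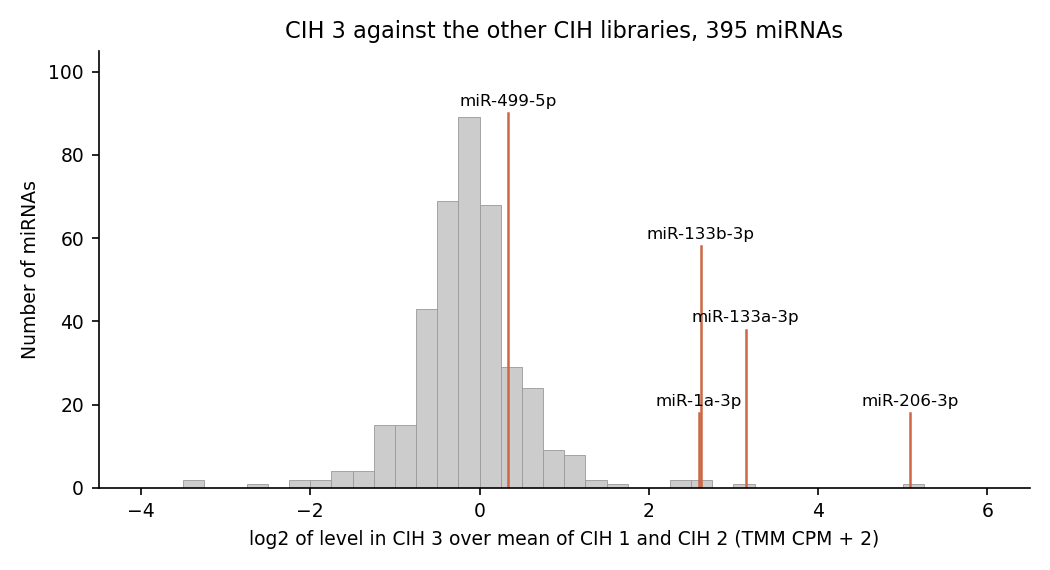
Histogram over the 395 miRNAs averaging 10 CPM or more of the log2 ratio of the level in CIH 3 to the mean of CIH 1 and CIH 2 (TMM CPM + 2), with red lines at the muscle miRNAs. miR-1a-3p (2.59), miR-133b-3p (2.61), miR-133a-3p (3.14) and miR-206-3p (5.08) lie in the far right tail and miR-499-5p (0.34) lies within the main body.

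The proportions between the muscle miRNAs show which of them moved together. These shares are ratios of counts within a library, so they do not depend on the scaling of the libraries. miR-133b-3p made up 15.1%, 15.1% and 11.7% of the counts of miR-133a-3p and miR-133b-3p in control 1, 2 and 3, and 19.6%, 16.4% and 14.5% in CIH 1, 2 and 3. All 6 of the 95% Wilson intervals shared a common range, so that this proportion was not distinguishable between libraries at this depth, also in CIH 3, where both levels were highest. Reads of this pair may be counted for either, so the proportion describes the counts as deposited.

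The proportion of miR-206-3p to its relative miR-1a-3p differed between libraries beyond counting error. miR-206-3p made up 0.111%, 0.567% and 0.0746% of the counts of both in control 1, 2 and 3, and 0.116%, 0.446% and 1.21% in CIH 1, 2 and 3. The interval in CIH 3, 1.09% to 1.35%, lay above those of the other 5 libraries, whose upper bounds reached 0.917%. CIH 3 thus had 1 count of miR-206-3p for 81.5 of miR-1a-3p. In the other 5 libraries it was 1 for between 175.3 in control 2, the nearest, and 1339.5 in control 3, which rests on 2 counts of miR-206-3p. miR-206-3p also exceeded its neighbour miR-133b-3p in CIH 3 (70.3% of the counts of both, interval 65.9% to 74.3%) and in control 2 (63.5%, interval 55.9% to 70.4%), while in control 3 and CIH 1 it made up 15.4% and 20.4%.

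miR-1a-3p and miR-133a-3p, which share precursor transcripts, also differed in their proportion between libraries, but not by group. miR-133a-3p made up 0.962%, 1.81% and 3.01% of the counts of both in control 1, 2 and 3, and 1.82%, 2.86% and 2.97% in CIH 1, 2 and 3. The intervals of control 3, CIH 2 and CIH 3 overlapped, as did those of control 2 and CIH 1, and control 1 lay below all of them. CIH 3 and CIH 2, the highest and the lowest library in the level of both miRNAs after TMM normalization, thus had nearly the same proportion.

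miR-499-5p made up 2.47%, 4.20% and 38.1% of the counts of miR-133a-3p and miR-499-5p in control 1, 2 and 3, and 14.6%, 42.5% and 4.35% in CIH 1, 2 and 3. The low value in CIH 3 came with a high level of miR-133a-3p, and the low values in control 1 and control 2 came with a low level of miR-499-5p. Only 2 counts lie behind the value in control 1, whose interval runs from 0.680% to 8.56%.

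**Figure D4:**
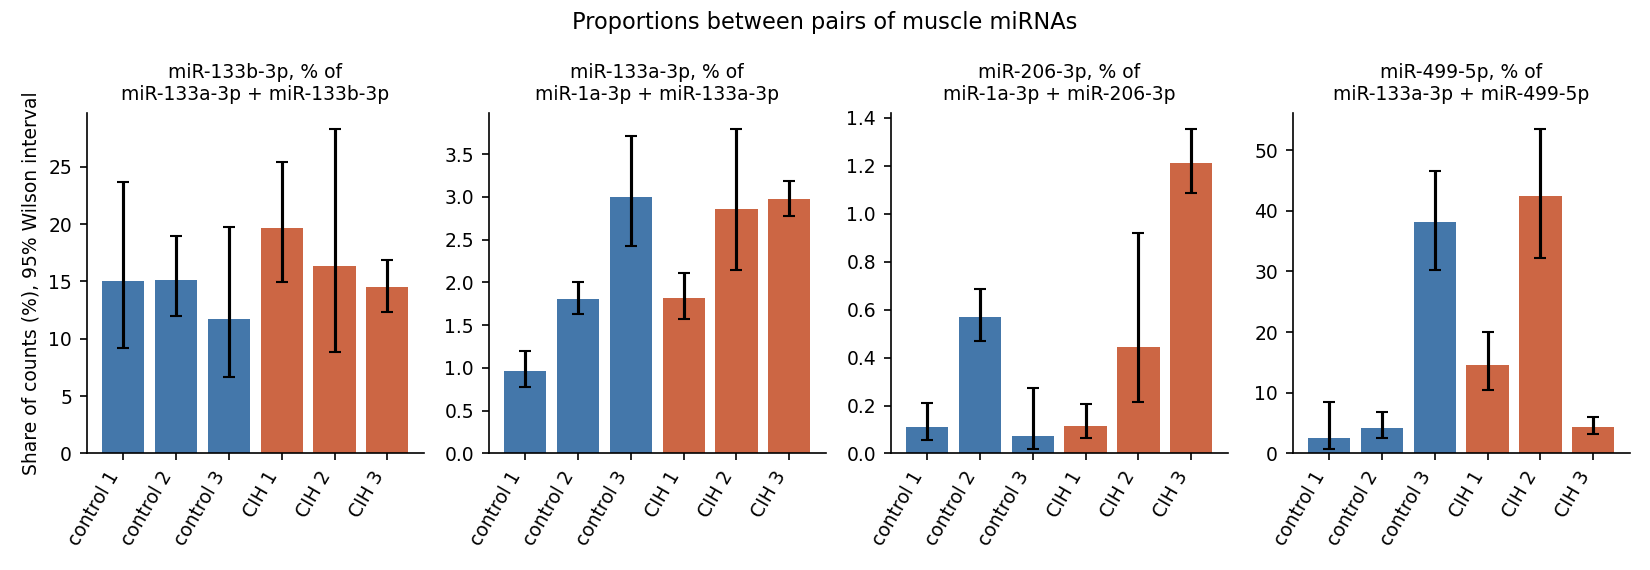
Share of one muscle miRNA in the summed counts of a pair, in percent, by library (blue, control; red, CIH), with 95% Wilson intervals that cover counting error only. The share of miR-133b-3p stays between 11.7% and 19.6%, the share of miR-206-3p is highest in CIH 3 (1.21%), and the share of miR-499-5p is highest in CIH 2 (42.5%) and control 3 (38.1%).

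The order of the levels was stable at the top and not below it. miR-1a-3p exceeded miR-133a-3p in 6 of 6 libraries, and miR-133a-3p exceeded each of miR-133b-3p, miR-206-3p and miR-499-5p in 6 of 6. miR-133b-3p exceeded miR-206-3p in 4 of 6 libraries, the exceptions being control 2 and CIH 3. It exceeded miR-499-5p in 4 of 6, the exceptions being control 3 and CIH 2. miR-206-3p exceeded miR-499-5p in 3 of 6, so the order of these 3 miRNAs was not fixed across libraries.

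The likeness of the profiles was measured as the root mean square difference between log2 levels over the 6 libraries, after each miRNA was centred on its own mean. miR-133a-3p and miR-133b-3p differed least, by 0.24, followed by miR-1a-3p with miR-133b-3p (0.58) and miR-1a-3p with miR-133a-3p (0.60). miR-206-3p differed from these by 1.15 to 1.31, and from miR-499-5p by 2.59. From the mean profile of the 5, to which each contributes, miR-133a-3p differed by 0.22, miR-133b-3p by 0.24, miR-1a-3p by 0.72, miR-206-3p by 1.15 and miR-499-5p by 1.61. The median over the other miRNAs averaging 10 CPM or more was 1.56, so the profile of miR-499-5p was no closer to this mean than that of a typical miRNA. The nearest miRNAs outside the group were MIMAT0019352 (0.81) and MIMAT0000159 (0.99). MIMAT0019352 had 20.4, 26.5 and 24.3 CPM in control 1 to 3, against 47.4, 33.5 and 64.0 CPM in CIH 1 to 3, so CIH 3 was also its highest library.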

How the data were processed

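The table deposited by the authors gives, for 6 libraries of WAT, the raw count of reads of each of 707 mature miRNAs. How reads were trimmed and aligned, the release of the miRNA database and the treatment of reads matching several miRNAs are not given in the sources used here. These choices can change the division of reads between near-identical miRNAs. None of the 5 muscle miRNAs had the same counts in all 6 libraries as another row. No library was a repeat of another, since each pair differed beyond counting noise.

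Libraries were grouped by their labels. miRNAs whose counts summed to 10 or more were kept (633). The test was edgeR 4.0.16 in R 4.3.3, a quasi-likelihood fit of group alone with TMM factors and Benjamini-Hochberg adjustment over all 633. Standard errors came from the fold change and the F statistic. Log2 levels used a prior count of 2. Wilson intervals (95%) and all other values were computed with Python 3.11.15, scipy 1.17.1 and pandas 2.3.3. The fit was run on simulated data as a check of the code. An outcome was required only at a set spread below that of both groups, so this does not measure power in these libraries. Alternatives were DESeq2 1.42.0, limma 3.58.1 with voom, edgeR's exact test, 4 other scalings, 3 other filters, the replicate number as a block, each library left out and, added after seeing the data, control 3 as the only control. An exact permutation test was not used, because its p-value could not go below 0.1 with 3 libraries per group.

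The miRNAs and lists were chosen with earlier results of these data known. The 5 miRNAs were always named, and the rule also named the miRNAs with the closest profiles, of which 2 are given. The 11 marker lists (45 miRNAs) could not be joined to the accessions and were not run. Sequences came from RefSeq (GRCm38.p6) and gene positions from GENCODE release M21 and RefSeq.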

Additional observations from a re-analysis of the deposited data

How the results depend on the processing

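The log2 fold changes of miR-133a-3p and miR-133b-3p stayed above 0 in all 18 and 17 alternatives that fitted them, that of miR-1a-3p in 17 of 18, and those of miR-206-3p and miR-499-5p in 16 of 17 each. The exception was the fit without CIH 3 for miR-1a-3p (-0.31) and miR-206-3p (-0.67), and the fit with control 3 as the only control, chosen after seeing the data, for miR-499-5p (-0.37). With 1 library left out, the values ran from -0.31 to 1.88 for miR-1a-3p, 0.15 to 2.54 for miR-133a-3p, 0.65 to 2.66 for miR-133b-3p, -0.67 to 4.27 for miR-206-3p and 0.53 to 3.34 for miR-499-5p. The unadjusted p-value of miR-133b-3p came under 0.05 with DESeq2 (log2 fold change 2.20) and with library sizes without the 5 most abundant miRNAs (2.59). The number of muscle miRNAs past an unadjusted p-value of 0.05 and 1.5-fold was thus 1 in each in place of 0, beside 4.44% and 2.53% of all miRNAs given a p-value. With 1 library left out, this number was 2 without CIH 2, beside 0.948% of all miRNAs tested, and 1 without control 3, beside 37.6%. It was 0 without CIH 3, beside 0.158%. It was also 0 without control 1 (9 of all 633 met the criteria with a rise and 8 with a fall), control 2 (8 and 12) or CIH 1 (3 and 3). The cause of these differences was not tested. DESeq2 gave no p-value for miR-206-3p, and a minimum of 10 counts in each library left 2 of the 5. Over all miRNAs the median change moved from 0.07 to 0.33 with library totals and to -0.52 with upper-quartile factors, beside medians of 2.60 and 1.39 over the 5 muscle miRNAs. Under each of the 3 other scalings tried for this count, 0 of the 5 had groups without overlap. Among all 633 miRNAs tested, the CIH libraries lay wholly above the controls for 25 and wholly below for 30 with RLE scaling factors. These numbers were 23 and 20 with library totals, and 33 and 17 with library sizes without the 5 most abundant miRNAs.

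The share of the 5 in a library depends on the denominator. Over totals without the 5 most abundant miRNAs it was 1.58%, 0.937% and 0.695% in control 1, 2 and 3 and 1.72%, 0.453% and 8.27% in CIH 1, 2 and 3. Over TMM effective library sizes it was 1.05%, 0.461% and 0.255% for the controls and 0.782%, 0.179% and 2.94% for CIH 1, 2 and 3. CIH 3 was the highest in each case.

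Replicate numbers 1 to 3 occur in both groups, but the deviations of same-numbered libraries correlated at 0.353, -0.116 and 0.0195 across miRNAs, so that a shared number was not taken as a pair. With the replicate block, the log2 fold changes were 0.34 for miR-1a-3p, 0.99 for miR-133a-3p, 1.34 for miR-133b-3p, 0.69 for miR-206-3p and 2.11 for miR-499-5p. In that fit 0 of the 5 met the criteria of unadjusted p under 0.05 and 1.5-fold. Among all 633 miRNAs tested, only 2 met them with a rise and 1 with a fall. Counts of 2 limit miR-206-3p in control 3 and miR-499-5p in control 1.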
